A study of Homo sapiens with 31 samples.

Results

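The 31 genes described here encode enzymes and regulators of sterol and fatty acid synthesis. They were listed by name in 4 branches: 7 enzymes that make isoprenoid precursors through mevalonate, 11 enzymes that build cholesterol from them, 5 regulators, and 8 enzymes that make and modify fatty acids. Of the 31, 29 were measured, out of 17314 genes in all, and each of them was read by 1 probe set. FDFT1 and HSD17B7 had no probe set annotated to them alone and were not analysed here, which left 9 genes in the cholesterol branch.

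The RNA came from tumours of PC3, an established human prostate carcinoma line, grown as xenografts, and was hybridised to 31 Affymetrix whole-transcript arrays in 8 groups. D4 and D3 are clones re-isolated after passage in vivo and labelled resistant to cyclophosphamide (CPA), an alkylating prodrug that the liver activates. A3 is another clone passaged in vivo, labelled sensitive, and wt is the unpassaged line, cultured in vitro and also labelled sensitive. Each line was either given 120 mg/kg CPA into the peritoneum or left untreated (control), after the tumours had reached a mean volume of 30 mm3. There were thus D4 CPA, D4 control, D3 CPA, D3 control, A3 CPA, wt CPA and wt control tumours with 4 arrays each, and A3 control tumours with 3, because the submitters left out 1 array as an outlier. D4, D3 and A3 are 1 clone each, so that resistance cannot be told apart from other differences between clones, nor passage in vivo from the choice of clone. The host animal is not given in the sources used here, and nothing in the labels ties arrays to separate animals, so the p-values speak of the scatter among these arrays, which may be partly technical.

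Cells make cholesterol from acetyl-CoA by way of mevalonate, and they make fatty acids from the same precursor. Most genes of both routes are switched on by the sterol regulatory element binding proteins, the products of SREBF1 and SREBF2. SCAP escorts these proteins out of the endoplasmic reticulum when sterols are scarce, INSIG1 holds SCAP back when sterols are plentiful, and INSIG1 is itself a target gene. SREBF2 acts mainly on sterol genes and SREBF1 mainly on fatty acid genes. Prostate carcinoma cells are known for active synthesis of both kinds of lipid.

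Values are the deposited log2 expression levels, in which a difference of 1 is a doubling. They compare a gene between arrays and not one gene with another. Array medians lay between 6.59 and 6.73. The carcinoma markers KRT8, KRT18, EPCAM and VIM averaged between 8.25 and 11.37 in every group. The luminal prostate genes KLK2 and KLK3, which PC3 cells are known to lack, averaged between 5.76 and 5.99. The other luminal genes measured were ACP3, which averaged between 6.07 and 6.59, and SLC45A3, which averaged between 7.18 and 7.73. A gene was called when its p-value in limma, after Benjamini-Hochberg adjustment for 17314 genes, was under 0.05. Differences are given with their standard error (SE). RNA per cell and the number of cells of a kind cannot be told apart in bulk tumours.

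Promoter sequences are shown for 7 of the genes called in the comparisons below. The protein NF-Y, which works beside the sterol regulatory element binding proteins, binds the letters CCAAT, and all 7 sequences shown hold them on 1 strand or the other. The sequences are from RefSeq (GRCh38.p14) and hold the 250 bases before the annotated start, 5′ to 3′ on the strand of the gene. Capitals mark CCAAT or its reverse complement ATTGG and, in SREBF2, the sterol regulatory element searched as TCACNCCAC. NSDHL lies at chrX:152830813-152831062 (+), FDPS at chr1:155308616-155308865 (+), HMGCS1 at chr5:43313413-43313662 (-), MSMO1 at chr4:165327419-165327668 (+), SREBF2 at chr22:41832855-41833104 (+), STARD4 at chr5:111512536-111512785 (-) and SCD at chr10:100346983-100347232 (+).
NSDHL: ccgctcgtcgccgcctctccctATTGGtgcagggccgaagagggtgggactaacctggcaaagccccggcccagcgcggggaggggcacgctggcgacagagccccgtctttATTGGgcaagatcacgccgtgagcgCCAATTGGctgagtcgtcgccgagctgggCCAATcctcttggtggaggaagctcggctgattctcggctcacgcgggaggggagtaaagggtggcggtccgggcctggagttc
FDPS: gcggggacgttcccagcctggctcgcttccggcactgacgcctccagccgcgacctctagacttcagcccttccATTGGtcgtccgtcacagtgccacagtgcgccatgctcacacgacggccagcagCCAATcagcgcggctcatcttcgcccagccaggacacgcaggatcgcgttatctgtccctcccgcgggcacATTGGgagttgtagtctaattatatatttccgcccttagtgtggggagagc
HMGCS1: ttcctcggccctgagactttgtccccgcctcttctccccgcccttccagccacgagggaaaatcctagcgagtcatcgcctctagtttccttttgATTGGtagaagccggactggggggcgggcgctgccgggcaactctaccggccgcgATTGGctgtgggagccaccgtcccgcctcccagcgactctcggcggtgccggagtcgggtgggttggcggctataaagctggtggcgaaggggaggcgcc
MSMO1: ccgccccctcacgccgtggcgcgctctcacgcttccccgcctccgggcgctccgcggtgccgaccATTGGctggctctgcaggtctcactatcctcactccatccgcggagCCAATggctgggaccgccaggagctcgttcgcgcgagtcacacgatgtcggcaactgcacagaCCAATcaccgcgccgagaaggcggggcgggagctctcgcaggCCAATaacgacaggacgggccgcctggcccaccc
SREBF2: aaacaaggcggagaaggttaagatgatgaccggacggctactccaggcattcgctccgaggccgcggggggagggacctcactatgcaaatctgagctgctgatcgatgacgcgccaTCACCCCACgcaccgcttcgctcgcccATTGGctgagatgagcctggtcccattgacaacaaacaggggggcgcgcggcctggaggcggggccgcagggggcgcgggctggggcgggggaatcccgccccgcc
STARD4: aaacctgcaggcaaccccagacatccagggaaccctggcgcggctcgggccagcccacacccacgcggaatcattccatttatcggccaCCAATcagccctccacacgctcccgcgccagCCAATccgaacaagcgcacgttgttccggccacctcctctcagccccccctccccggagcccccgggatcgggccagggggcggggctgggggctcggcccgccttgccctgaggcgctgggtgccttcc
SCD: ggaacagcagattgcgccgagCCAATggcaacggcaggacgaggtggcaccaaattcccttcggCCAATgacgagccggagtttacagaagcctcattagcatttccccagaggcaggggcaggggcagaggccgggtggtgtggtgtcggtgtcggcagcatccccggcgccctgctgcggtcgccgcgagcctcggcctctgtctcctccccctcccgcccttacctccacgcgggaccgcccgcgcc
Of the 29 genes 26 were matched by gene identifier to such a sequence. ACAT2, SQLE and FASN were not among them. On either strand CCAAT was found in 17 of the 26, against 33.0% of 27305 promoters of the same length. The 27305 were not limited to the genes measured here, so they are an unlike set. By branch CCAAT was found in 4 of 6 mevalonate, 7 of 8 cholesterol, 3 of 5 regulator and 3 of 7 fatty acid genes. CCAAT was not found in ACACA, CYP51A1 and SCAP, nor in FADS1, FADS2, SREBF1, IDI1, ELOVL6 and PMVK. The last 6 of these are also called in comparisons below. NSDHL and MVK held 5 copies each and MSMO1 held 4. In NSDHL a CCAAT and an ATTGG overlap. GGGCGG, which the factor SP1 binds, was found in 24 of the 26, against 42.3% of all promoters. CACGTG, a palindrome known as an E-box, was found in 3 (INSIG1, SC5D and SCAP), against 6.5%. TCACNCCAC was found in 1, SREBF2, against 0.9%. These are matches of letters and show no binding.

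Across the 8 groups the genes followed more than 1 pattern. A3 control tumours had the highest group mean for 15 of the 29 genes, mostly mevalonate and cholesterol enzymes, and wt control tumours for 9, mostly regulators and fatty acid genes. The lowest group mean was in D4 CPA tumours for 11 genes, in D4 control tumours for 6, in wt CPA tumours for 5 and in D3 control tumours for 4.

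**Figure D1:**
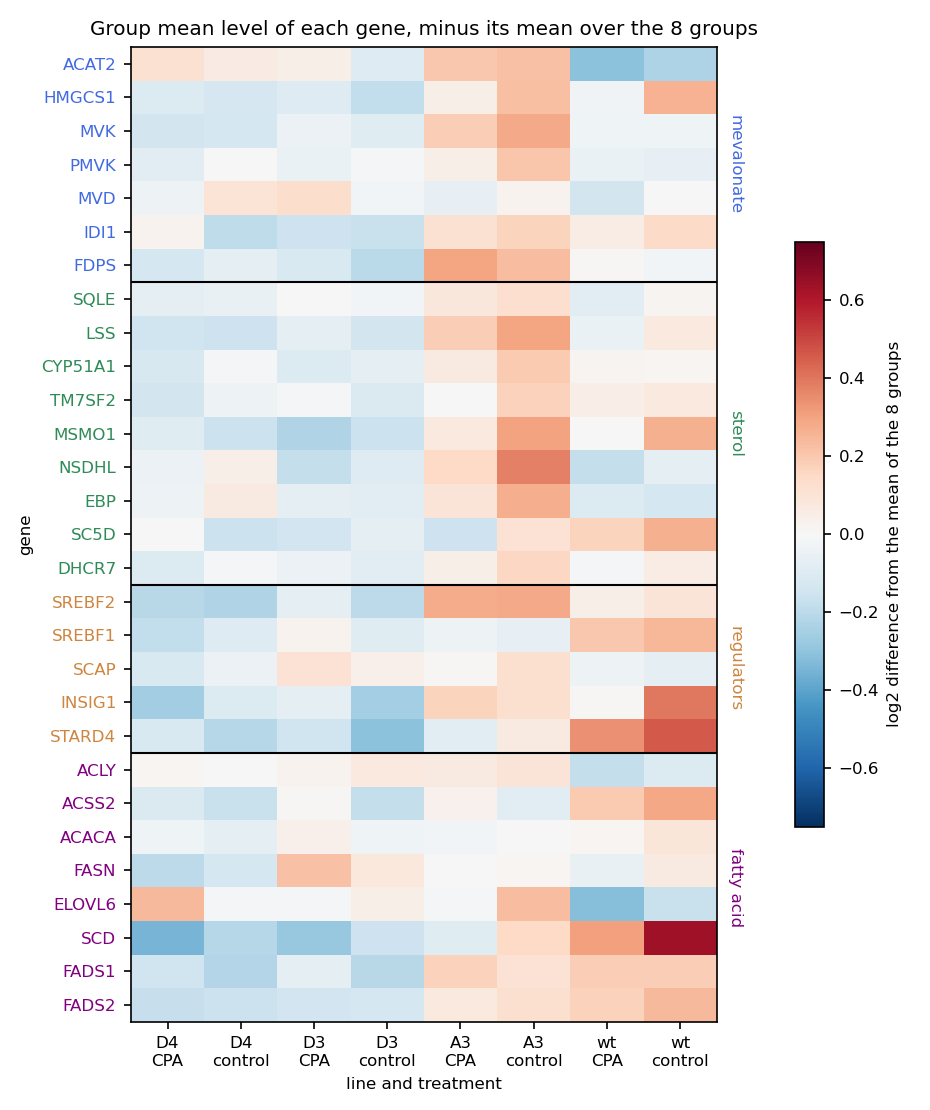
Mean log2 level of each of the 29 genes in each of the 8 groups, minus the gene's mean over the 8 groups, with the genes in rows by branch. Red is above and blue below the gene's own mean; the A3 control column is red for most mevalonate and cholesterol enzymes, and SCD, STARD4 and INSIG1 are reddest in wt control tumours.

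The labels set resistant against sensitive lines, and D4 and D3 were compared with A3 first, without treatment, since all 3 clones were passaged in vivo. In D4 control against A3 control tumours 7 of the 29 genes fell and 0 rose, where 3.77% of all genes were called (1.75% higher and 2.02% lower). They were HMGCS1, MVK and FDPS of the mevalonate branch, LSS, MSMO1 and NSDHL of the cholesterol branch, and SREBF2. In D3 control against A3 control tumours 6 fell and 0 rose, where 2.27% of all genes were called (1.30% higher and 0.970% lower). They were HMGCS1, MVK, FDPS, MSMO1, NSDHL and EBP. Both comparisons use the same 3 A3 arrays. The median difference over the 29 genes was -0.23 in D4 and -0.28 in D3, against 0.000397 and -0.02 over all genes. In each clone 28 of 29 differences were negative. The arrays of clone and A3 did not overlap for 8 of the 29 in D4 and 12 in D3. Over all genes these shares were 9.62% and 12.3%.

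NSDHL, which helps to remove methyl groups from sterol precursors, had 9.19, 9.28, 9.44 and 9.07 on the D4 control arrays, 9.09, 9.09, 9.09 and 9.13 in D3 control, 9.61, 9.48 and 9.64 in A3 control, and 9.10, 9.19, 9.08 and 9.12 in wt control tumours. Every A3 array was above all arrays of the other lines. The differences from A3 were -0.33 ± 0.08 SE in D4 (adjusted p 0.0109) and -0.48 ± 0.08 SE in D3 (adjusted p 0.000351), or 1.26-fold and 1.39-fold lower. FDPS, which makes farnesyl diphosphate, had 9.59, 9.29, 9.62 and 9.25 in D4 control, 9.24, 9.34, 9.34 and 9.29 in D3 control, and 9.65, 9.66 and 9.89 in A3 control tumours. The resistant clones again lay below A3 without overlap, with D4 replicates 1 and 4 close to the lowest A3 array. The differences were -0.30 ± 0.09 SE in D4 (adjusted p 0.0487) and -0.43 ± 0.09 SE in D3 (adjusted p 0.00502).

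MVK, which phosphorylates mevalonate, had 7.72, 7.80, 7.99 and 7.50 in D4 control, 7.77, 7.67, 7.95 and 7.78 in D3 control, and 8.15, 8.09 and 8.26 in A3 control tumours. It was lower without overlap in both clones, by 0.41 ± 0.09 SE in D4 (adjusted p 0.00727) and by 0.37 ± 0.09 SE in D3 (adjusted p 0.022). HMGCS1, which makes the precursor of mevalonate, had 10.36, 10.47, 10.17 and 10.21 in D4 control, 10.20, 10.28, 10.30 and 10.20 in D3 control, and 10.81, 10.50 and 10.66 in A3 control tumours. A3 replicate 2 lay just above the highest D4 array. The differences were -0.36 ± 0.10 SE in D4 (adjusted p 0.0391) and -0.41 ± 0.10 SE in D3 (adjusted p 0.0214).

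Of the other mevalonate enzymes, IDI1 differed by -0.35 in D4 and -0.33 in D3, ACAT2 by -0.16 and -0.31, PMVK by -0.21 and -0.22 and MVD by 0.07 and -0.05, and none was called.

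In the cholesterol branch MSMO1, which oxidises a methyl group of sterol precursors, had 8.99, 9.12, 8.92 and 8.71 in D4 control, 8.83, 9.00, 9.07 and 8.83 in D3 control, and 9.68, 9.07 and 9.44 in A3 control tumours. A3 replicate 2 fell within the range of the resistant clones, and the other A3 arrays lay above it. MSMO1 differed by -0.46 ± 0.12 SE in each clone (adjusted p 0.0291 in D4 and 0.0417 in D3). EBP, a sterol isomerase, was lower in D3 (-0.36 ± 0.09 SE, adjusted p 0.0351), and its difference in D4 of -0.21 was not called. LSS, which closes the sterol ring system, was lower in D4 (-0.45 ± 0.12 SE, adjusted p 0.0358), and its difference in D3 of -0.43 missed the threshold (adjusted p 0.0626). The other cholesterol enzymes (the epoxidase SQLE, the demethylase CYP51A1, the reductases TM7SF2 and DHCR7, and the desaturase SC5D) differed by -0.14 to -0.28 in the 2 clones and were not called.

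Among the regulators SREBF2 had 8.36, 8.42, 8.87 and 8.28 in D4 control, 8.57, 8.49, 8.73 and 8.25 in D3 control, and 8.89, 9.03 and 9.05 in A3 control tumours. All resistant arrays lay below all A3 arrays, with D4 replicate 4 closest to them. SREBF2 was lower in D4 (-0.51 ± 0.14 SE, adjusted p 0.0306) and differed by -0.48 ± 0.14 SE in D3 (adjusted p 0.0607). STARD4, which carries cholesterol between membranes, differed by -0.28 in D4 and -0.38 in D3 and INSIG1 by -0.23 and -0.38, with none called. SREBF1 (-0.04 and -0.03) and SCAP (-0.16 and -0.08) were not called either. None of the 8 fatty acid genes was called in either clone. Their largest differences were SCD, which puts the double bond into stearate (-0.36 in D4 and -0.30 in D3), and the desaturase FADS1 (-0.33 and -0.32).

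How many of the sterol and fatty acid synthesis genes were called depended on single arrays. Without A3 control replicate 4 limma called 0 of these synthesis genes in D4 and 1 in D3, where 281 and 168 of all genes were called. At an unadjusted p under 0.05 there were 9 and 12 synthesis genes. With all arrays there were 14 and 19 at that threshold, against 15.1% and 11.5% of all genes. Without A3 control replicate 1 the counts of called synthesis genes were 2 and 2. Without D4 control replicates 2 and 5 the count in D4 was 4 and 1, and without D3 control replicates 1, 2 and 5 the count in D3 was 2, 3 and 3. NSDHL in D3 kept its call in 7 of 7 fits that left out 1 array, FDPS in D3 in 6 of 7 and MVK in D4 in 6 of 7. SREBF2 in D4 kept it in 1 of 7, HMGCS1 and FDPS in D4 and MVK and MSMO1 in D3 in 2 of 7, LSS in D4 and HMGCS1 and EBP in D3 in 3 of 7, and MSMO1 and NSDHL in D4 in 4 of 7. A limma fit restricted to the groups being compared called 0 synthesis genes in D4 and 1 in D3, where 67 and 105 of all genes were called. At an unadjusted p under 0.05 this fit had 11 and 18 synthesis genes. Array weights called 17 and 18 synthesis genes, where 1644 and 1207 of all genes were called. The share of all genes at an unadjusted p under 0.05 was not counted in these alternative fits.

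**Figure D2:**
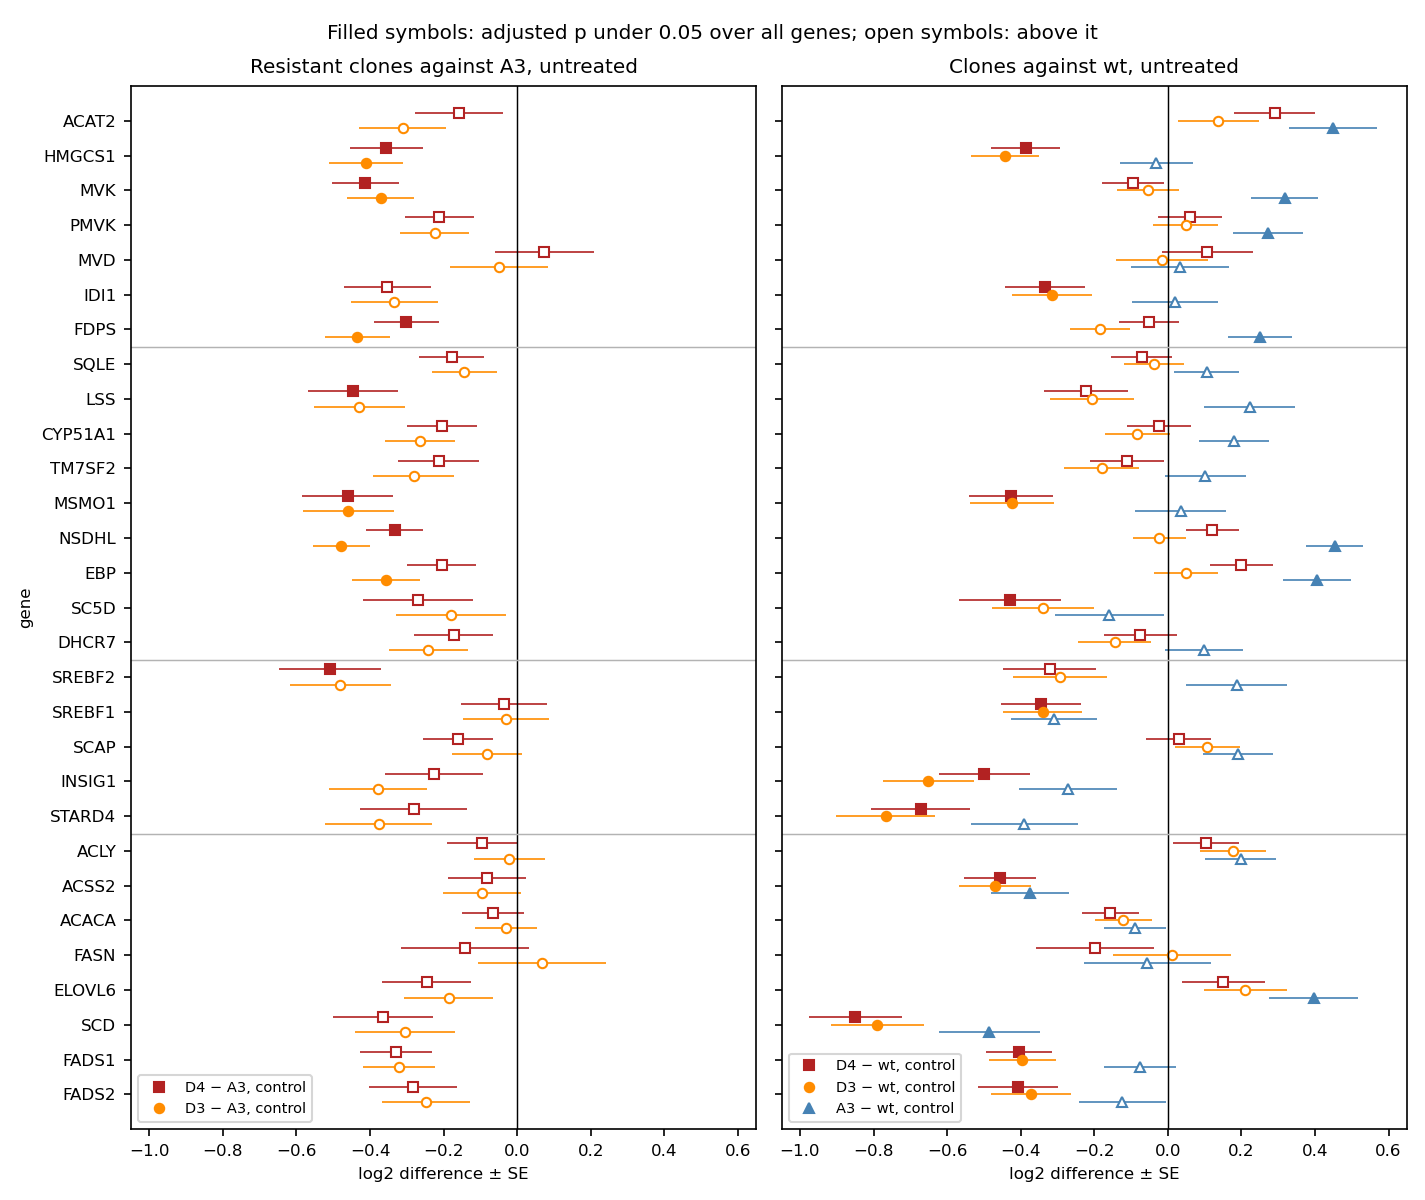
Log2 difference (horizontal axis, with SE) of each of the 29 genes between untreated tumours, D4 and D3 minus A3 on the left and D4, D3 and A3 minus wt on the right. Filled symbols passed an adjusted p of 0.05; on the left nearly all symbols lie below 0, and on the right the A3 triangles lie above 0 for most enzymes in the upper rows while SCD and STARD4 lie far below 0 in D4 and D3.

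A3 was then set against wt, the comparison of a passaged clone with the unpassaged line, both labelled sensitive. It uses the same A3 control arrays as the comparisons of D4 and D3 with A3. Rises here and falls there are thus not independent. Of the 29 genes 7 rose and 2 fell in A3 control against wt control tumours, where 18.5% of all genes were called (10.1% higher and 8.36% lower). The rising genes were 4 of 7 mevalonate enzymes (ACAT2, MVK, PMVK and FDPS), 2 of 9 cholesterol enzymes (NSDHL and EBP) and ELOVL6, which lengthens fatty acids. The falling genes were ACSS2, which makes acetyl-CoA from acetate, and SCD. The A3 and wt arrays did not overlap for 10 of the 29, against 24.2% of all genes. The median difference was 0.25 over the mevalonate branch and 0.11 over the cholesterol branch, against 0.04 over all genes, and -0.27 over the regulators, of which none was called.

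For NSDHL the difference was 0.45 ± 0.08 SE (adjusted p 7.74e-05), with the array values given above. ACAT2, which joins 2 acetyl-CoA units at the start of the route, had 9.38, 9.06 and 9.48 in A3 control and 8.62, 9.06, 8.73 and 9.02 in wt control tumours. Its lowest A3 array and its highest wt array were level, and the difference was 0.45 ± 0.12 SE (adjusted p 0.00728). EBP had 9.86, 9.71 and 9.97 in A3 control and 9.42, 9.56, 9.22 and 9.57 in wt control tumours, higher in A3 on every array (0.41 ± 0.09 SE, adjusted p 0.00207). MVK was higher by 0.32 ± 0.09 SE (adjusted p 0.0124), PMVK, the next kinase of the route, by 0.27 ± 0.09 SE (adjusted p 0.0411) and FDPS by 0.25 ± 0.09 SE (adjusted p 0.0442). ELOVL6 was higher by 0.40 ± 0.12 SE (adjusted p 0.0195), with groups that overlapped. ACSS2 differed by -0.37 ± 0.11 SE (adjusted p 0.0118) and SCD by -0.49 ± 0.14 SE (adjusted p 0.0113).

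HMGCS1 (-0.03), IDI1 (0.02), MSMO1 (0.04) and MVD (0.03), the decarboxylase that ends the mevalonate steps, were not called in A3 against wt. Among the regulators STARD4 differed by -0.39 (adjusted p 0.0595), SREBF1 by -0.31 (adjusted p 0.0636), INSIG1 by -0.27, and SREBF2 and SCAP by 0.19 each, with none called. Without A3 control replicate 4 the count of called genes was 5, and a fit of only these groups also called 5. With any 1 array left out NSDHL and EBP kept their calls in 7 of 7 fits, and PMVK and FDPS kept theirs in 2 of 7.

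The resistant clones were also set against wt, which differs from them in passage as well as in the resistance label. In D4 control against wt control tumours 11 of the 29 genes fell and 0 rose, where 20.1% of all genes were called (9.22% higher and 10.9% lower). In D3 control against wt control tumours 10 fell and 0 rose, where 18.1% of all genes were called (9.69% higher and 8.40% lower). The wt arrays are the same in both and in the comparison of A3 with wt. The 10 genes of D3 were among the 11 of D4: HMGCS1 and IDI1, MSMO1, SREBF1, INSIG1 and STARD4, and ACSS2, SCD, FADS1 and FADS2. The remaining gene of D4 was SC5D, a sterol desaturase. With the replicate number as a block the count in D3 was 12, with SC5D lower (-0.40, adjusted p 0.0457) and ACLY higher (0.24, adjusted p 0.0383) called as well. By branch 3 of 5 regulators and 4 of 8 fatty acid genes fell in each clone, with median differences of -0.35 and -0.30 in D4 and -0.34 and -0.25 in D3. Over all genes the median difference was 0.05 in D4 and 0.01 in D3. The arrays of clone and wt did not overlap for 11 of the 29 in D4 and 10 in D3, against 18.4% and 22.1% of all genes.

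SCD had 9.84, 10.08, 10.42 and 9.80 in D4 control, 10.17, 10.01, 10.37 and 9.83 in D3 control, 10.43, 10.25 and 10.52 in A3 control, and 10.97, 10.92, 10.83 and 10.82 in wt control tumours. All wt arrays lay above every array of the clones. SCD was lower than in wt by 0.85 ± 0.13 SE in D4 (adjusted p 1.06e-05) and by 0.79 ± 0.13 SE in D3 (adjusted p 3.63e-05), or 1.80-fold and 1.73-fold. STARD4 had 8.81, 8.67, 8.09 and 8.40 in D4 control, 8.34, 8.57, 8.28 and 8.41 in D3 control, 9.00, 8.32 and 9.01 in A3 control, and 8.98, 9.44, 9.01 and 9.23 in wt control tumours. The resistant clones lay below wt without overlap, whereas 2 of 3 A3 arrays reached the wt range. The differences from wt were -0.67 ± 0.13 SE in D4 (adjusted p 0.000476) and -0.77 ± 0.13 SE in D3 (adjusted p 0.000116).

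INSIG1 had 9.24, 9.09, 9.33 and 8.71 in D4 control, 9.00, 8.84, 9.14 and 8.79 in D3 control, 9.34, 9.25 and 9.37 in A3 control, and 9.64, 9.62, 9.61 and 9.49 in wt control tumours. Again all wt arrays were the highest. INSIG1 was lower by 0.50 ± 0.12 SE in D4 (adjusted p 0.00388) and by 0.65 ± 0.12 SE in D3 (adjusted p 0.000294). SREBF1 was lower by 0.35 ± 0.11 SE in D4 (adjusted p 0.022) and by 0.34 ± 0.11 SE in D3 (adjusted p 0.0252), with overlapping groups. SREBF2 (-0.32 and -0.29) and SCAP (0.03 and 0.11) were not called.

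FADS1 and FADS2, neighbours on chromosome 11 that desaturate polyunsaturated fatty acids, both fell. FADS1 had 9.29, 9.46, 9.70 and 9.31 in D4 control, 9.41, 9.43, 9.59 and 9.37 in D3 control, 9.79, 9.73 and 9.79 in A3 control, and 9.93, 9.89, 9.77 and 9.78 in wt control tumours. Its A3 and wt arrays overlapped and all resistant arrays lay below both. FADS1 was lower than in wt by 0.40 ± 0.09 SE in D4 (adjusted p 0.00148) and by 0.40 ± 0.09 SE in D3 (adjusted p 0.00201), and FADS2 by 0.41 ± 0.11 SE (adjusted p 0.00762) and 0.37 ± 0.11 SE (adjusted p 0.0156). ACSS2 was lower by 0.46 ± 0.10 SE in D4 and by 0.47 ± 0.10 SE in D3 (adjusted p 0.000995 and 0.000856). The core enzymes of fatty acid synthesis were not called: FASN, the synthase itself, differed by -0.20 in D4 and 0.01 in D3, ACACA, which makes malonyl-CoA, by -0.16 and -0.12, and ACLY, which splits citrate, by 0.10 and 0.18.

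HMGCS1 was lower than in wt by 0.39 ± 0.09 SE in D4 (adjusted p 0.00282) and by 0.44 ± 0.09 SE in D3 (adjusted p 0.000859), and MSMO1 by 0.43 ± 0.11 SE (adjusted p 0.00749) and 0.42 ± 0.11 SE (adjusted p 0.00808). IDI1, an isomerase of isoprenoid precursors, was lower by 0.33 ± 0.11 SE in D4 (adjusted p 0.0284) and by 0.31 ± 0.11 SE in D3 (adjusted p 0.0424), and SC5D by 0.43 ± 0.14 SE in D4 (adjusted p 0.0257). NSDHL (0.12 and -0.02), FDPS (-0.05 and -0.18), MVK (-0.09 and -0.05) and EBP (0.20 and 0.05), which were lower than in A3 in at least 1 clone, were not called against wt. With any 1 array left out 10 to 11 genes were called in D4 and 7 to 9 in D3. The calls of HMGCS1, MSMO1, INSIG1, STARD4, ACSS2, SCD and FADS1 held in 8 of 8 such fits in both clones. Those of SREBF1 held in 4 of 8 in each clone, that of FADS2 in 8 of 8 in D4 and 5 of 8 in D3, that of SC5D in 5 of 8 in D4, and that of IDI1 in 5 of 8 in D4 and 2 of 8 in D3.

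**Figure D3:**
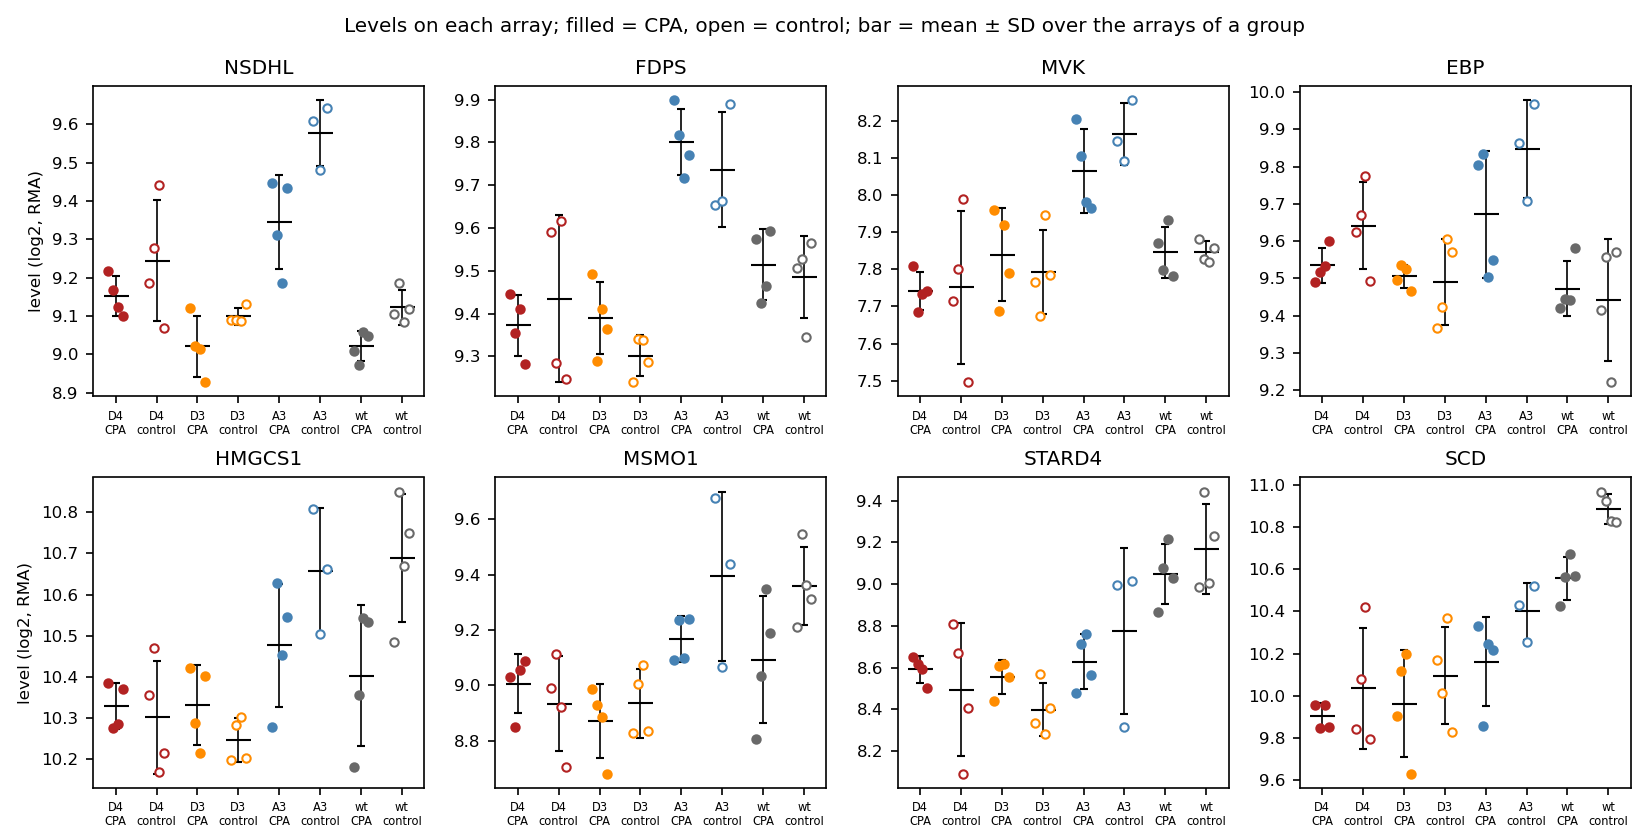
Log2 level on each array for 8 genes in the 8 groups, filled for CPA and open for control, with the group mean and SD. NSDHL, FDPS, MVK and EBP in the upper row are highest in A3, and SCD and STARD4 at the lower right are highest in wt.

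The resistant clones were also set against each other. In D4 control against D3 control tumours limma called 0 of the 29 genes, where 0.323% of all genes were called. At an unadjusted p under 0.05 there were 0 of the 29, against 9.67% of all genes. The largest differences were FASN at -0.21 and the acetyl-CoA enzyme ACAT2 at 0.15. The 95% intervals of the 29 differences ran from -0.538 to 0.405, with a median width of 0.207 to either side.

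Among CPA-treated tumours FDPS was lower in both resistant clones than in A3. In D4 CPA against A3 CPA tumours 5 of the 29 genes fell and 0 rose, where 12.4% of all genes were called (7.41% higher and 4.97% lower): MVK (-0.32 ± 0.08 SE), FDPS (-0.43 ± 0.08 SE), SREBF2 (-0.48 ± 0.13 SE), INSIG1 (-0.43 ± 0.12 SE) and FADS1 (-0.32 ± 0.09 SE). In D3 CPA against A3 CPA tumours 2 fell, FDPS (-0.41 ± 0.08 SE) and NSDHL (-0.32 ± 0.07 SE), where 4.55% of all genes were called (1.56% higher and 2.99% lower). In A3 CPA against wt CPA tumours ACAT2 (0.51 ± 0.11 SE), FDPS (0.29 ± 0.08 SE) and NSDHL (0.32 ± 0.07 SE) rose. STARD4 (-0.42 ± 0.13 SE) and SCD (-0.40 ± 0.13 SE) fell. In that comparison 16.3% of all genes were called (6.74% higher and 9.60% lower). Of the 29 genes 17.2% were called in D4 against A3, 6.9% in D3 against A3 and 17.2% in A3 against wt. The last of these lies near the share over all genes.

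FDPS had 9.45, 9.36, 9.41 and 9.28 in D4 CPA, 9.49, 9.29, 9.41 and 9.37 in D3 CPA, 9.90, 9.82, 9.72 and 9.77 in A3 CPA, and 9.57, 9.43, 9.46 and 9.59 in wt CPA tumours. Every A3 array lay above every array of the other lines. Groups did not overlap for 8 of the 29 in D4 against A3, 6 in D3 against A3 and 7 in A3 against wt. Over all genes these shares were 18.4%, 9.65% and 19.3%. The FDPS calls in D4 (adjusted p 0.000693) and D3 (adjusted p 0.00218) held in 8 of 8 fits without 1 array, as did NSDHL in D3 (adjusted p 0.00592). The count in D4 was 1 without A3 CPA replicate 1, 2 without D4 CPA replicate 5 and 3 without D4 CPA replicate 2. The count in A3 against wt was 2 without wt CPA replicate 2, 3 without wt CPA replicate 5 and 3 without A3 CPA replicate 1, and ACAT2 (adjusted p 0.0014) and NSDHL (adjusted p 0.0017) were called in 8 of 8 such fits. FDPS kept its call in 6 of 8, SCD in 4 of 8 and STARD4 in 3 of 8.

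The resistant clones were also compared with wt under treatment, a comparison added after the values had been seen. In D4 CPA against wt CPA tumours 2 genes rose and 6 fell, where 15.1% of all genes were called (7.54% higher and 7.59% lower). ELOVL6 (0.56 ± 0.11 SE) and ACAT2 (0.42 ± 0.11 SE) rose, and SREBF1 (-0.39), STARD4 (-0.46), ACSS2 (-0.30), SCD (-0.65), FADS1 (-0.34) and FADS2 (-0.35) fell. In D3 CPA against wt CPA tumours ACAT2 (0.35 ± 0.11 SE) rose and STARD4 (-0.49), SCD (-0.59), FADS1 (-0.26) and FADS2 (-0.32) fell. There 16.4% of all genes were called (6.28% higher and 10.1% lower). Of the 29 genes 27.6% were called in D4 and 17.2% in D3, the latter near the share over all genes. Of the genes called against wt without treatment, HMGCS1, IDI1, MSMO1 and INSIG1 were not called under CPA in either clone. Nor were SC5D in D4 and SREBF1 and ACSS2 in D3. HMGCS1 averaged 10.33 in D4 CPA, 10.33 in D3 CPA and 10.40 in wt CPA tumours, and INSIG1 averaged 8.93, 9.13 and 9.21. Without wt CPA replicate 3 the count was 3 in D4 and 1 in D3. Without D4 CPA replicate 5 the count in D4 was 5, and without wt CPA replicates 1 and 2 and D3 CPA replicate 5 the count in D3 was 2, 3 and 2.

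**Figure D4:**
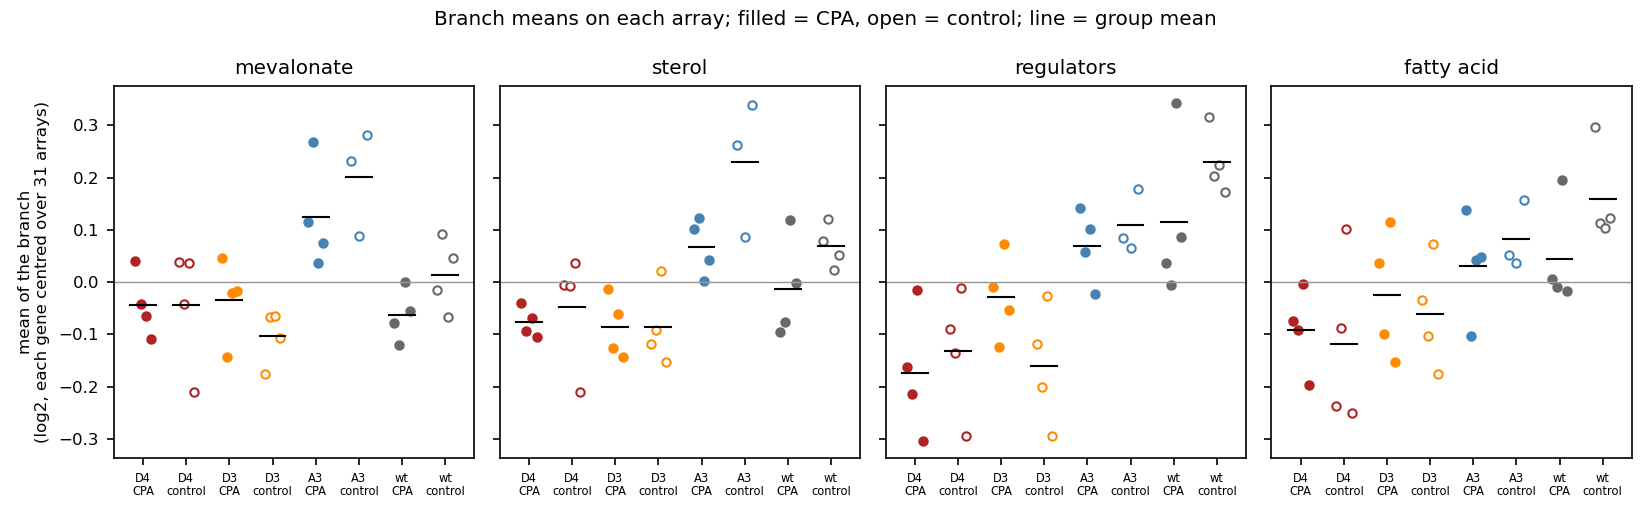
Mean over the genes of a branch on each array (vertical axis, log2, each gene centred over the 31 arrays) in the 8 groups, filled for CPA and open for control. Mevalonate and cholesterol enzymes are highest in A3 control tumours, at 0.20 and 0.23 on average, and regulators and fatty acid genes in wt control tumours, at 0.23 and 0.16.

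CPA was then compared with no treatment within each line. None of the 29 genes was called by limma in any line. For D4 1.03% of all genes were called, for D3 0.231%, for A3 0.352% and for wt 0.0462%. These shares depended on single arrays. The 178 genes behind the D4 share became 787 without D4 control replicate 2, 366 without D4 control replicate 5, 34 without D4 control replicate 1, 35 without D4 CPA replicate 1 and 9 when D4 control replicates 1 and 4, A3 control replicate 2 and D3 CPA replicate 5 were dropped together. With any 1 array left out the counts lay between 24 and 39 for D3 in place of 40, 18 and 61 for A3 in place of 61, and 3 and 10 for wt in place of 8. None of the 29 was called in any of these fits. At an unadjusted p under 0.05 there were 1 of the 29 for D4, 0 for D3, 1 for A3 and 4 for wt, against 21.9%, 12.8%, 6.68% and 3.38% of all genes. The median difference over the 29 genes was -0.01 for D4, 0.07 for D3, -0.10 for A3 and -0.08 for wt. Treated and untreated arrays were without overlap for 0 of the 29 in D4, 0 in D3, 1 in A3 and 2 in wt. Over all genes these shares were 9.97%, 9.6%, 5.04% and 2.15%. The 95% intervals had a median width of 0.207 to either side, and 0.224 in A3. A call needed a larger difference than this: on simulated data limma found 75% of differences of 0.5 for D4, 71% for D3, 65% for A3 and 76% for wt. The simulated data held 200 changed genes, and noise was drawn separately for each gene. In the real data fewer genes than that were called in each line with all arrays, which makes the adjustment stricter. Single arrays also moved many genes together, so the simulated shares may be too high for these comparisons.

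In wt the 4 genes were INSIG1, HMGCS1, SCD and MSMO1. INSIG1 had 9.03, 8.95, 9.60 and 9.25 in wt CPA and 9.64, 9.62, 9.61 and 9.49 in wt control tumours. Replicate 3 of the treated tumours lay in the range of the untreated ones, and the others lay below it. The difference was -0.39 ± 0.12 SE (95% interval -0.64 to -0.13, adjusted p 0.777). HMGCS1 had 10.18, 10.36, 10.54 and 10.53 in wt CPA and 10.48, 10.85, 10.67 and 10.75 in wt control tumours, a difference of -0.29 ± 0.09 SE with overlapping groups (adjusted p 0.777). SCD had 10.43, 10.56, 10.67 and 10.57 in wt CPA and 10.97, 10.92, 10.83 and 10.82 in wt control tumours. These 2 groups did not overlap, and the difference was -0.33 ± 0.13 SE (adjusted p 1). MSMO1 differed by -0.27 ± 0.11 SE (adjusted p 1).

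In A3 the gene was NSDHL, with 9.45, 9.31, 9.19 and 9.43 in A3 CPA and 9.61, 9.48 and 9.64 in A3 control tumours. All treated arrays were below the untreated ones, and the difference was -0.23 ± 0.08 SE (adjusted p 0.407). With array weights NSDHL was called, at -0.30 (adjusted p 0.0307). In D4 it was ELOVL6, with 7.96, 8.14, 7.80 and 8.07 in D4 CPA and 7.52, 7.92, 7.60 and 7.90 in D4 control tumours, an overlapping difference of 0.26 ± 0.11 SE (adjusted p 0.184). In D3 ACSS2 (0.19 ± 0.10 SE, adjusted p 0.42) and INSIG1 (0.19 ± 0.12 SE, adjusted p 0.508) differed most, and neither was called.

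**Figure D5:**
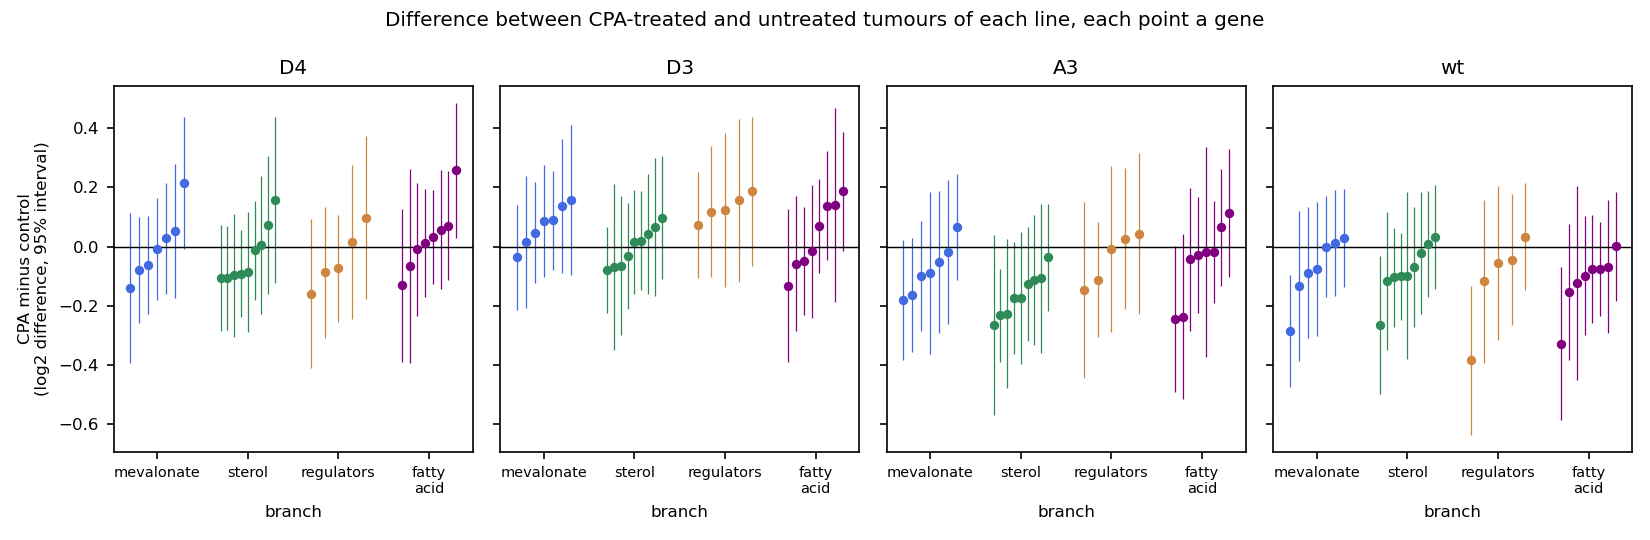
Log2 difference between CPA-treated and untreated tumours (vertical axis, with 95% intervals) for each gene of the 4 branches in D4, D3, A3 and wt. Most intervals include 0, and the lowest points are INSIG1 at -0.39 and SCD at -0.33 in wt.

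The difference between lines in the response to CPA was tested as an interaction. In each of the 3 interactions limma called 0 of 17314 genes (0%). At an unadjusted p under 0.05 there were 2474 genes for D4 against A3, 507 for D3 against A3 and 554 for A3 against wt, of which 2, 0 and 1 belonged to the 29. The count over all genes for D4 against A3 was 396 without A3 control replicate 2, 3 without D4 control replicate 2 and 375 with array weights, and 0 of the 29 were called in each of these fits. For ELOVL6 the change with CPA in D4 minus that in A3 was 0.50 ± 0.17 SE (95% interval 0.16 to 0.84, adjusted p 0.295). Its mean went from 7.74 in control to 7.99 in CPA tumours of D4, and from 7.98 to 7.74 in A3. For SC5D the same quantity was 0.42 ± 0.20 SE (adjusted p 0.345), with means from 8.89 to 9.045 in D4 and from 9.16 to 8.89 in A3. For INSIG1 the change in A3 minus that in wt was 0.43 ± 0.18 SE (adjusted p 1). Its mean hardly moved in A3 (9.32 to 9.36) and fell in wt (9.59 to 9.21).

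Within a group single arrays carried many of the 29 genes up or down together. Of the 29, wt CPA replicate 3 was the highest of its group for 22, D4 control replicate 4 for 20, D3 control replicate 3 for 19, and A3 control replicate 4 and wt control replicate 1 for 18 each. D4 control replicate 5 was the lowest of its group for 20 and A3 control replicate 2 for 17. D4 control replicate 4 was also the array farthest from its group mean over all genes, and A3 control replicate 2 and D4 control replicate 1 came next. Whether these arrays differ in tumour or in handling was not tested.

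Genes around the pathway were read from 6 further lists with 104 genes, of which 91 were measured. Against A3, 7 of the 91 rose and 4 fell in D4 control tumours (12.1%, against 3.77% of all genes), and 2 rose and 2 fell in D3 control tumours (4.4%, against 2.27%). ME1, the malic enzyme that supplies NADPH for fatty acid synthesis, was higher by 0.97 ± 0.09 SE in D4 (adjusted p 2.51e-08) and 0.48 ± 0.09 SE in D3. MBTPS1, the protease that makes the initial cut in the sterol regulatory element binding proteins, was higher by 0.53 ± 0.07 SE in D4 and 0.28 ± 0.07 SE in D3. CPT1C, a carnitine palmitoyltransferase known mainly from brain, was lower by 0.52 ± 0.09 SE in D4 and 0.48 ± 0.09 SE in D3. NCEH1, which releases cholesterol from its esters, was higher in D4 (0.43 ± 0.10 SE), and TMEM97, a sterol-responsive membrane protein, was lower in D3 (-0.30 ± 0.08 SE).

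Set against wt, the same lists gave 21 higher and 8 lower of 91 in D4 control tumours (31.9%, against 20.1% of all genes), 19 and 9 in D3 control (30.8%, against 18.1%) and 18 and 7 in A3 control tumours (27.5%, against 18.5%). ABCA1 and ABCG1, which export cholesterol from cells, were lower in A3 by 0.87 ± 0.10 SE and 0.77 ± 0.11 SE. INSIG2, the sister of INSIG1, was lower by 0.98 ± 0.16 SE, and ELOVL2, which lengthens polyunsaturated fatty acids, was higher by 0.93 ± 0.13 SE. The same wt arrays served for D4 and D3, in which all 4 genes were called as well. In D4 and D3 ABCA1 differed from wt by -1.11 and -0.80, ABCG1 by -0.81 and -0.70, INSIG2 by -0.75 and -1.07, and ELOVL2 by 1.27 and 1.13.

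By list, in A3 control against wt control tumours 8 of 19 fatty acid oxidation genes, 3 of 9 isoprenoid and ubiquinone genes, 3 of 15 glycerolipid genes, 3 of 22 further fatty acid genes and 1 of 11 further sterol regulators rose. In the same comparison 3 further sterol regulators, 3 of 15 sterol transport genes and 1 further fatty acid gene fell. Over all genes 10.1% rose and 8.36% fell, so several of these counts lie near the share over all genes. In D4 control against A3 control tumours 2 glycerolipid genes were higher and 1 lower of 15, and each of the other related lists had up to 2 calls. No gene of the 91 was called for CPA in any line by limma. PLIN3, a lipid droplet protein, came closest in A3 (-0.52, adjusted p 0.0591), and ACADL, a dehydrogenase of fatty acid oxidation, in D4 (0.43, adjusted p 0.066).

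Markers of cells that could share the tumours were read beside these results. The probe sets are human and the host animal is not given, so how well they read transcripts of host cells is unknown. Levels of the adipocyte, fibroblast, endothelial, myeloid and skin markers are thus no sure measure of host cells. None of 10 adipocyte markers was called in any untreated comparison, and their mean level lay between 5.74 and 5.94 in every group. Of 8 fibroblast markers COL3A1 and LUM were lower in A3 control than in wt control tumours, and 0 were called between D4 or D3 and A3. Of 6 endothelial markers KDR and PECAM1 were lower in A3 than in wt, and between D4 and A3 KDR was lower (-0.55) and PECAM1 higher (0.39). The mean over the 8 fibroblast markers lay between 6.666 and 6.805 on the D4 control arrays, 6.701 and 6.83 in D3 control, 6.505 and 6.751 in A3 control and 6.759 and 6.839 in wt control tumours. The mean over the 6 endothelial markers lay between 5.742 and 5.964 in D4 control, 5.763 and 5.888 in D3 control, 5.713 and 5.795 in A3 control and 5.863 and 6.129 in wt control tumours. Of 6 myeloid markers CD68 was higher in A3 than in wt, and of 6 skin and 4 luminal prostate markers 0 were called in that comparison. KRT8 and EPCAM of the carcinoma markers were lower in A3 than in wt (-0.46 and -0.39), and higher in D4 (0.64 and 0.32) and D3 (0.51 and 0.32) than in A3. Against wt, D4 had KDR (-1.74), COL3A1 (-0.77), LYZ (-0.60) and SLC45A3 (-0.31) lower and TEK (0.38), CD68 (0.30) and AWAT2 (0.47) higher, and D3 had KDR (-1.01), COL3A1 (-0.61) and ACP3 (-0.46) lower and COL1A1 (0.43) and MGST1 (0.36) higher. Between D4 and D3 KDR was lower in D4 (-0.73). Among CPA-treated tumours, D4 had EPCAM, KRT8, LUM and AWAT2 higher and KDR and CD68 lower than A3, and D3 had EPCAM, COL1A1 and the adipocyte marker AQP7 higher and CD68 lower than A3. Against wt CPA tumours, D4 CPA had KDR (-1.58), COL3A1, SLC45A3 and the adipocyte marker CFD lower and AWAT2 and MGST1 higher, D3 CPA had KDR (-0.86), COL3A1, LUM and ACP3 lower and COL1A1 and the adipocyte marker LEP higher, and A3 CPA had KDR (-0.97), COL3A1, LUM, EPCAM, KRT8 and AQP7 lower and CD68 higher. The part of these markers in the differences of the 29 genes was not tested.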

How the data were processed

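Log2 expression levels of 31 Affymetrix Human Gene 1.0 ST arrays were used as deposited by the authors. They had been normalized with RMA, per the submitters' processing notes, and its version is not given in the sources used here. Of 23989 probe sets 17624 had 1 gene symbol in the platform annotation, 411 several and 5954 none. The probe set with the highest mean was kept for each of 17314 genes, and no filter on low values was set.

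From these levels 1 linear model with 8 group means was fitted (limma 3.58.1, R 4.3.3, lmFit and eBayes, 23 residual degrees of freedom). It gave 18 comparisons, 2 of them added after the values had been seen, with Benjamini-Hochberg adjustment over all genes, a threshold of 0.05 and 95% intervals. Array data have no read depth, so precision is limited by how many arrays there are: the median residual SD was 0.148, which gives an SE of 0.105 for 4 arrays against 4. The fit was tested on simulated data with 200 changed genes and noise drawn separately for each gene. It found 67% of differences of 0.5 and 98% of 1 in D3 against A3 control tumours. In D4 against A3 control tumours it found 69% and 99%, and for the interaction of D4 and A3 31% and 87%. These shares may be lower where fewer genes change or arrays move many genes together.

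The 31 genes, the 6 related lists and the marker lists (carcinoma, luminal prostate, adipocyte, fibroblast, endothelial, myeloid and skin) were chosen with earlier results of these data known. Named are the genes called in the comparison described, the 2 with the largest differences in a branch, the regulators, and up to 4 related genes with the smallest adjusted p. Members outside that rule in a comparison, such as EBP, ACAT2 and PMVK in D4 against A3 control tumours, are given to account for every member. Same-numbered arrays were checked for pairing by the correlation of their deviations from the group means over all genes. All 3 shared numbers correlated above 0.1 for D3 control with wt control (0.155 to 0.408) and for D4 control with D3 control (0.214 to 0.425). Of all 84 pairs of same-numbered arrays 35 correlated above 0.1, so these 2 sets do not establish a pairing, and the labels state none. The alternatives restricted the fit to the groups being compared, blocked on the replicate number, weighted the arrays, centred them on their medians, quantile-normalized them again, dropped the 30% dimmest genes, tested every probe set, or dropped arrays. Promoters were searched with Python 3.11.15 and pandas 2.3.3.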

Additional observations from a re-analysis of the deposited data

Results flagged for a closer look

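Within groups of 4 arrays, single arrays stood apart from the other arrays of their group by a Dixon test at the 95% level in 12 of 203 sets of values (5.9%), where chance gives about 5%. The log2 levels that stood apart were DHCR7 at 10.109 and FADS1 at 10.016 on A3 CPA replicate 1, NSDHL at 9.132 on D3 control replicate 5, LSS at 8.037 on D4 CPA replicate 5, CYP51A1 at 9.458 on D4 control replicate 5, ACSS2 at 9.842 and IDI1 at 9.039 and SREBF2 at 9.057 on wt CPA replicate 3, EBP at 9.582 on wt CPA replicate 5 and DHCR7 at 10.099 and MVD at 8.596 and SREBF2 at 9.017 on wt control replicate 1. The group of 3 arrays was not tested.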

How the results depend on the processing

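No called difference changed its sign under any alternative run. Leaving out the dimmest 30% of genes moved no count of called genes by more than 1.5 times. A fit of only the groups compared gave 5 called genes in A3 against wt control tumours, 1 in D3 against A3 control, 0 in D4 against A3 control and 1 in D3 against A3 CPA tumours, and it has fewer arrays to estimate the spread. Array weights gave 18 in D3 against A3 control, 17 in D4 against A3 control and 1 for CPA in A3 (NSDHL). Median centring gave 3 in D3 against A3 control and 3 in D3 against wt CPA tumours. A further quantile normalization gave 3 in D4 against A3 control tumours. Testing all probe sets gave 4 in D4 against A3 control and 3 in D3 against wt CPA tumours. Without the 4 arrays farthest from their group mean, an alternative chosen after seeing the data, 9 were called in A3 against wt CPA and 2 in D3 against wt CPA tumours. The cause of these shifts was not tested.

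With 1 array left out in turn, the counts lay between 1 and 8 in D3 against A3 control, 0 and 8 in D4 against A3 control, 5 and 9 in A3 against wt control, 7 and 9 in D3 against wt control, and 10 and 11 in D4 against wt control tumours. Under CPA they lay between 2 and 2 in D3 against A3, 1 and 6 in D4 against A3, 2 and 5 in A3 against wt, 1 and 5 in D3 against wt, and 3 and 9 in D4 against wt. They stayed at 0 for D4 against D3, for CPA in each line and for the 3 interactions.

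With the replicate number as a block, 3 genes were called in D3 against A3 control and 4 in D4 against A3 control tumours, and no other count moved by more than 1.5 times. Of the 25 pairs of groups that shared 3 or more numbers, 2 had all correlations above 0.1. In the others at least 1 correlation was 0.1 or below. Over all 84 pairs of arrays the median was 0.0527 and the range -0.661 to 0.6. The block ended the calls of PMVK and FDPS in A3 against wt control, MVK, MSMO1 and EBP in D3 against A3 control, FDPS, LSS and MSMO1 in D4 against A3 control and STARD4 in A3 against wt CPA tumours, and in the last it added ELOVL6. Over all genes, the counts in the fit of only the groups compared were 105 in place of 393 in D3 against A3 control, 67 in place of 653 in D4 against A3 control and 1882 in place of 3200 in A3 against wt control tumours, and with array weights 1207 and 1644 in D3 and D4 against A3 control. With 1 array left out the counts over all genes lay between 168 and 272 in D3 against A3 control, 281 and 799 in D4 against A3 control and 1177 and 2670 in place of 2143 in D4 against A3 CPA tumours. The planned mean over a gene's probe sets was not run, because each of the 29 genes had 1.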
